A study of Mus musculus with 5 samples.

Results

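The PGC-1 coactivators Ppargc1a, Ppargc1b and Pprc1, the muscle regulator Perm1 and the estrogen-related receptors Esrra, Esrrb and Esrrg were followed in tibialis anterior (TA) muscle, a fast-twitch muscle of the lower leg. These 7 genes were taken by name from the 17015 genes of an RNA-seq table, and all 7 passed the minimum of 0.5 FPKM (fragments counted per kilobase of a gene's transcripts and per library size) that left 12148 genes for testing. The muscle came from sedentary male mice, 8 weeks old, bred from a C57BL/6J line with floxed Nrip1 and C57BL/6JN mice with Cre, so that substrains are mixed in the cross. WT control mice (3 libraries) were Cre-negative littermates from the crosses with Nrip1 fl/fl mice, and skmNrip1-/- mice (2 libraries) carried floxed Nrip1 alleles together with a Cre recombinase under the myogenin promoter, which acts in differentiating skeletal muscle fibers. Cre removes exon 4 of Nrip1, which holds the coding sequence of the nuclear receptor corepressor RIP140. Cells of the muscle that do not express myogenin, such as endothelial cells, keep the gene. The comparison asks how this family of regulators and the pathway around it differ between TA muscle of the genotypes.

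PGC-1 coactivators do not bind DNA themselves. They dock on transcription factors, among them the ERRs, PPARs and NRF1, and recruit the machinery that opens chromatin and starts transcription of genes for mitochondrial respiration and fatty acid oxidation. The ERRs are orphan nuclear receptors that resemble the estrogen receptors but do not need estrogen, and they bind a short element in the promoters of many mitochondrial genes. RIP140, in contrast, docks on many of the same receptors and recruits repressive complexes. Because ERRs and PGC-1 coactivators also act on each other's genes and on Perm1, the family is usually described as a feed-forward circuit of oxidative muscle.

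For Ppargc1a the values of the groups overlapped, whereas the values labelled skmNrip1-/- both exceeded the highest WT control value for Ppargc1b, Perm1, Esrra and Esrrb. For these 4 genes the mean of the libraries labelled skmNrip1-/- was 1.51, 1.39, 1.29 and 1.52 times the WT control mean. None of the 7 genes was called after adjustment over all genes tested, and the WT control libraries varied considerably among themselves. Ppargc1b also made up a larger share of the summed coactivators in both libraries labelled skmNrip1-/-, and of 28 ERR and PGC-1 target genes, 27 had both such values above the WT control range, as did 15.8% of all genes. On the TPM scale, 1 of the 4 regulators and 8 of the 28 targets stayed above it, beside 2.8% of all genes. The list of targets was written with earlier results of these data known.

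The targeted gene goes against its label. Nrip1 (ENSMUSG00000048490) had an FPKM of 4.64, 7.69 and 6.55 in WT control (replicates 1, 2 and 3, the order used throughout), and of 25.3 and 22.6 in the libraries labelled skmNrip1-/- (replicates 1 and 2). Its log2 fold change was 1.94 (SE 0.21, adjusted p = 0.0261 from limma). With 1 value per gene, the table does not separate exon 4 from the other exons, so it does not check the deletion. The study checked this mouse line by Nrip1 expression and RIP140 protein in gastrocnemius and heart, not in these TA libraries. Every direction below rests on the labels of the libraries.

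The table held a defined muscle profile. Among the fast fiber genes, Myh4, the myosin of type 2B fibers, had 6416 to 8478 FPKM, whereas Myh7, the slow myosin, had 0.449 to 1.72 FPKM. Summed over 8 fast fiber markers, WT control replicate 1 stood apart with 113600 FPKM, against 76610 to 86740 in the other 4 libraries. The library size used to scale the FPKM, read from their smallest steps and relative to WT control replicate 1, was 0.822 to 1.11. This size need not equal the total of fragments, because rescaling by the median of ratios left the values nearly unchanged. Genes encoded by mitochondrial DNA took 45.4% to 50.7% of the FPKM sum in WT control libraries and 58.6% and 60.9% in the libraries labelled skmNrip1-/-. When each library is rescaled to TPM (a sum of 1e+06), the median log2 fold change of all genes moves from -0.00 to -0.29, and when only nuclear genes enter the sum, it moves to 0.07.

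Promoter sequence for these genes was taken from RefSeq (GRCm38.p6) as windows of 300 bases, 250 before and 50 after a start. The windows cover 10 starts of 6 of the genes. No window of Ppargc1b was searched, so nothing is said here about its promoter. A search on both strands used the ERR response element TNAAGGTCA, its shorter forms AAGGTCA and AGGTCA, which lie within it, and the letters TGACGTCA (cAMP response element), CCGGAAGT (GABPA) and sites of 10 letters for NRF1 and MEF2, of which the MEF2 letters are those in capitals for Esrrg. Within the windows searched, the only matches fell in Perm1, Pprc1 and Esrrg. They are shown here in 26-base windows, with the match in capitals, because they are the only places in these promoters where any of the searched letters occur.
Perm1, AAGGTCA on the reverse strand, chr4:156215716-156215741, plus strand: aatccggtgTGACCTTagctaatgcc
Pprc1, AGGTCA, chr19:46056416-46056441, plus strand: tcctcgagggAGGTCAgggcctttat
Esrrg, MEF2 site, chr1:187608976-187609001, plus strand: aaactttgCTATTTATAGtctacgcc
The Perm1 match began 202 bases upstream of the start, the Pprc1 match 113 bases and the Esrrg match 22 bases. AAGGTCA occurred in 1 of the 10 windows and in 4.72% of all 32851 promoter windows, and AGGTCA in 2 of the 10 and in 16.3% of all windows. The MEF2 site occurred in 1 of the 10 and in 0.164% of all windows. The complete element TNAAGGTCA was in none of the 10 windows (1.28% of all), and the same held for TGACGTCA (1.79%), CCGGAAGT (3.89%) and the NRF1 site (0.971%). A match describes these letters only, and binding was not measured here.

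**Figure D1:**
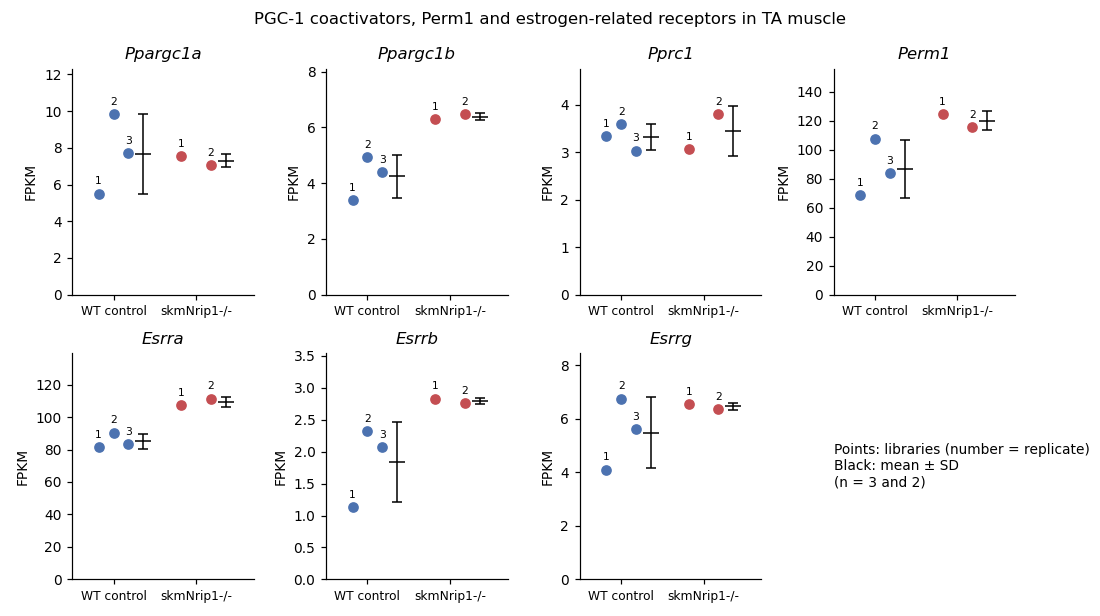
FPKM of each of the 7 genes in the 3 WT control (blue) and 2 skmNrip1-/- (red) libraries, with the replicate number beside each point and the group mean ± SD in black (n = 3 and 2); every vertical axis starts at 0. Both red points lie above all blue points for Ppargc1b, Perm1, Esrra and Esrrb, and the groups overlap for Ppargc1a, Pprc1 and Esrrg.

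Among the coactivators, Ppargc1a encodes PGC-1α, which exercise and cold induce. It lies on the minus strand of chromosome 5 (51454250 to 51567726 on GRCm38; ENSMUSG00000029167), with 3 annotated starts of protein-coding transcripts. Its FPKM was 5.50, 9.86 and 7.70 in WT control, and 7.55 and 7.05 in the libraries labelled skmNrip1-/-. Both of the latter lay inside the WT control range, and the means were 7.69 ± 2.18 (SD, n = 3) and 7.30 ± 0.352 (SD, n = 2). The log2 fold change was -0.03 (SE 0.23, adjusted p = 0.975 from limma). Its 95% interval, -0.60 to 0.53 on the log2 scale, leaves room for a moderate difference in either direction. Fragments from the alternative Ppargc1a starts cannot be separated in a value per gene.

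Ppargc1b (ENSMUSG00000033871, chromosome 18) encodes PGC-1β, which is tied to basal mitochondrial content and, in liver, to SREBP-driven lipid synthesis. Its FPKM was 3.39, 4.94 and 4.39 in WT control, and 6.30 and 6.49 in the libraries labelled skmNrip1-/-. The lower of the latter was 1.27 times the highest WT control value. The means were 4.24 ± 0.787 (SD, n = 3) and 6.39 ± 0.139 (SD, n = 2), and the fold change on the log2(FPKM + 0.1) scale was 1.51 (95% interval 1.13 to 2.02; log2 0.60, SE 0.17). This difference exceeded the SD of both groups but was not called (adjusted p = 0.271 from limma). Of the 7 genes, only Ppargc1b had both values above the WT control range when the values were rescaled to TPM, with 4.89 and 5.05 TPM against 2.96 to 4.79.

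Pprc1 encodes PRC, the growth-regulated relative of the other coactivators (ENSMUSG00000055491, chromosome 19, 46044886 to 46072915, plus strand). Its FPKM was 3.33, 3.58 and 3.03 in WT control and 3.07 and 3.81 in the libraries labelled skmNrip1-/-. These values overlapped, with a log2 fold change of 0.05 (SE 0.15, adjusted p = 0.939 from limma) and a 95% interval of the fold change from 0.802 to 1.33. The sign turned to -0.24 after rescaling to TPM.

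Perm1 encodes a muscle regulator that PGC-1 and the ERRs induce and that in turn promotes ERR activity (ENSMUSG00000078486, chromosome 4, 156215868 to 156221307, plus strand). It has 1 annotated transcript, so its value does not depend on how fragments are divided among isoforms. The FPKM was 68.7, 107.7 and 83.6 in WT control, and 124.8 and 115.5 in the libraries labelled skmNrip1-/-. The groups did not overlap, but the lower of the latter exceeded the highest WT control value by a factor of only 1.07. The means were 86.6 ± 19.7 (SD, n = 3) and 120.2 ± 6.59 (SD, n = 2), with a fold change of 1.41 (95% interval 1.03 to 1.93; log2 0.49, SE 0.19; adjusted p = 0.381 from limma).

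Esrra encodes ERRα, the receptor most used by PGC-1α in muscle (ENSMUSG00000024955, chromosome 19, 6910977 to 6921813, minus strand). Its FPKM was 81.3, 90.4 and 83.1 in WT control and 107.1 and 111.3 in the libraries labelled skmNrip1-/-. The WT control values lay within a factor of 1.11 of each other, and the lower of the libraries labelled skmNrip1-/- was 1.18 times the highest of them. The means were 84.9 ± 4.83 (SD, n = 3) and 109.2 ± 2.95 (SD, n = 2). The fold change was 1.29 (95% interval 1.09 to 1.52; log2 0.36, SE 0.10), and it too was not called (adjusted p = 0.254 from limma). On the TPM scale the groups overlapped, and the log2 fold change was 0.06, which is 0.35 higher than the all-gene median there.

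Esrrb encodes ERRβ, best known from embryonic stem cells and the inner ear (ENSMUSG00000021255, chromosome 12, 86361117 to 86521628, plus strand). It was the lowest of the 7 genes in every library, with an FPKM of 1.14, 2.32 and 2.07 in WT control, and of 2.83 and 2.75 in the libraries labelled skmNrip1-/-. WT control replicate 1 was far below the other libraries. The means were 1.84 ± 0.625 (SD, n = 3) and 2.79 ± 0.0529 (SD, n = 2), and the 95% interval of the fold change ran from 0.949 to 2.53 around 1.55 (log2 0.63, SE 0.30; adjusted p = 0.475 from limma). Without WT control replicate 1 the log2 fold change was 0.33.

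Esrrg encodes ERRγ, the receptor enriched in slow and oxidative fibers (ENSMUSG00000026610, chromosome 1, 187608791 to 188214885, plus strand). Its FPKM was 4.10, 6.75 and 5.61 in WT control and 6.56 and 6.37 in the libraries labelled skmNrip1-/-. WT control replicate 2 exceeded both of the latter, so the groups overlapped. The fold change was 1.199 (95% interval 0.848 to 1.69; log2 0.26, SE 0.21; adjusted p = 0.700 from limma). Without WT control replicate 1 the log2 value was 0.07, and on the TPM scale it was -0.03.

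Counted together, 0 of the 7 genes were called (adjusted p at or under 0.05 with a fold of 1.2 or more), as against 0.453% of all genes tested (0.37% higher and 0.0823% lower). Before adjustment, Ppargc1b, Perm1 and Esrra, 3 of 7, had a limma p of 0.05 or less, all with higher values in the libraries labelled skmNrip1-/-, and 6.57% of all genes had such a p in that direction and 5.33% in the other. For 4 of 7 genes both skmNrip1-/- values lay above the whole WT control range, which held for 15.8% of all genes, and for none did they lie below, which held for 14.4%. The median log2 fold change of the 7 was 0.36, and the quartiles of all genes were -0.16 and 0.15. Log2 fold changes were above 0 for 6 of 7, as for 49.9% of all genes. These genes do not vary independently, so the counts describe the family and no test was made of them.

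**Figure D2:**
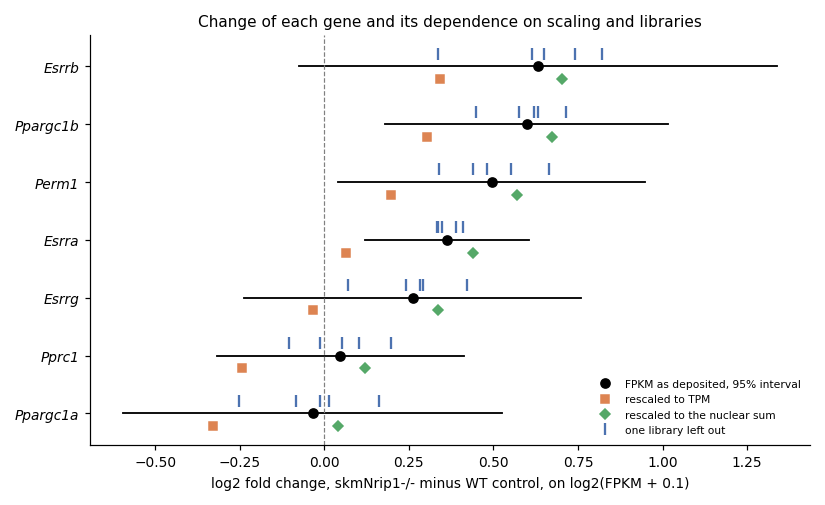
Log2 fold change of each gene, libraries labelled skmNrip1-/- minus WT control, on log2(FPKM + 0.1), as black points with the 95% limma interval; squares and diamonds give the value after rescaling to TPM and to the sum of nuclear genes, and blue ticks the values with 1 library left out. Intervals of Ppargc1b, Perm1 and Esrra lie above 0 as deposited, and every TPM value lies to the left of the deposited value.

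None of the 7 genes was called under any alternative of scaling, filter, model or left-out library. The 4 genes above every WT control library were 1, Ppargc1b, after rescaling to TPM, a scale on which 2.8% of all genes lay above and 49.6% below every WT control library. With the sum of nuclear genes as the scale they remained the same 4 genes, Ppargc1b, Perm1, Esrra and Esrrb, beside 18.9% of all genes. Measured from the median of all genes at each scale, the log2 difference was 0.59 on the TPM scale and 0.60 on the nuclear scale for Ppargc1b. It was 0.49 and 0.50 for Perm1, 0.35 and 0.37 for Esrra, and 0.63 on both scales for Esrrb.

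A single library carried much of the WT control spread. WT control replicate 1 had the lowest value of all 5 libraries for 6 of the 7 genes, the exception being Pprc1, and it had the lowest value for 26.6% of all genes. WT control replicate 2 had the highest WT control value for all 7, as for 34.6% of all genes. Leaving out WT control replicate 1 kept Ppargc1b, Perm1, Esrra and Esrrb above the remaining WT control libraries. Their log2 fold changes were then 0.45, 0.34, 0.33 and 0.33, and of these Esrrb moved the most and Esrra the least. This is also the library with the high sum of fast fiber markers, and the part of that difference in these values was not tested.

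**Figure D3:**
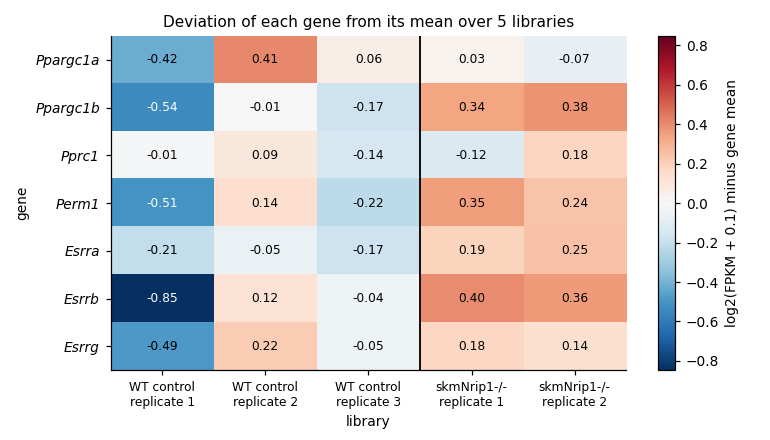
Deviation of each gene from its own mean over the 5 libraries, in log2(FPKM + 0.1), with libraries in columns and the line separating WT control from skmNrip1-/-. The column of WT control replicate 1 is lowest for 6 of 7 genes, reaching -0.85 for Esrrb, and both columns labelled skmNrip1-/- are above 0 for Ppargc1b, Perm1, Esrra, Esrrb and Esrrg.

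FPKM are per length, so levels can be ordered between genes within a group. In WT control TA, Perm1 (86.6 FPKM) and Esrra (84.9 FPKM) were the most abundant and did not differ beyond their spread, since Perm1 was above Esrra in 2 of 3 libraries. Then came Ppargc1a, Esrrg, Ppargc1b, Pprc1 and Esrrb, each above the next in all 3 libraries. The ranges of neighbours over libraries still overlapped from Ppargc1a to Pprc1. In the libraries labelled skmNrip1-/-, Ppargc1b (6.39 FPKM) was level with Esrrg (6.47 FPKM), each being higher in 1 of 2 libraries, and the other neighbours kept this order in both. Esrra and Perm1 thus stood far above the coactivators in both groups, while Esrrg lay among the coactivators and Esrrb below them.

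Shares within a family do not depend on how the libraries were scaled. Ppargc1b made up 27.7%, 26.9% and 29.0% of the summed FPKM of the 3 PGC-1 coactivators in WT control, and 37.2% and 37.4% in the libraries labelled skmNrip1-/-. These values were close together within each group and did not overlap, with a difference of 9.44 percentage points (exact permutation test over libraries, two-sided p = 0.2, the smallest that 3 against 2 libraries can give). Leaving out any 1 library moved the difference only between 8.94 and 10.01 points. The share of Ppargc1a was 45.0%, 53.6% and 50.9% against 44.6% and 40.6%, and the lowest WT control share lay just above the higher of the others. Pprc1 had 19.5% to 27.2% in WT control and 18.1% and 21.9% in the libraries labelled skmNrip1-/-, which overlapped. The ratio of Ppargc1b to Ppargc1a was 0.616, 0.501 and 0.570 in WT control and 0.834 and 0.921 in the libraries labelled skmNrip1-/-, while the sum of the 3 coactivators overlapped between the groups (12.2 to 18.4 FPKM against 16.9 and 17.4 FPKM).

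Among the receptors, no share separated the groups. Esrra took 90.9% to 94.0% of their summed FPKM in WT control and 91.9% and 92.4% in the libraries labelled skmNrip1-/-. Esrrg had 4.74% to 6.79% against 5.63% and 5.29%, and Esrrb 1.31% to 2.33% against 2.43% and 2.29%. Each of these shares overlapped. The sum of the receptors, which is nearly all Esrra, was 86.5, 99.5 and 90.8 FPKM in WT control and 116.5 and 120.4 FPKM in the libraries labelled skmNrip1-/-. Perm1 stayed near the level of Esrra in both groups, at 0.844 to 1.19 times Esrra in WT control and 1.17 and 1.04 times in the others.

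**Figure D4:**
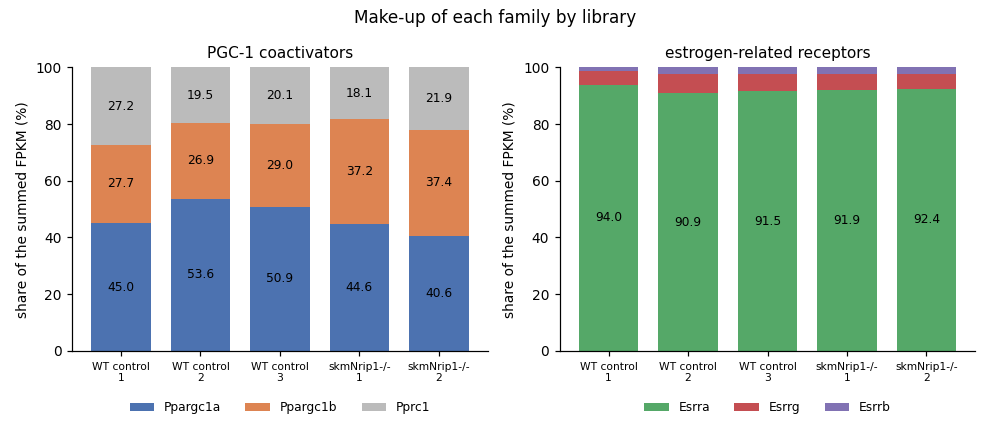
Share (%) of each gene in the summed FPKM of the PGC-1 coactivators (left) and of the estrogen-related receptors (right), 1 stacked bar per library, axis from 0 to 100. The Ppargc1b segment is 26.9% to 29.0% in WT control and 37.2% and 37.4% in the libraries labelled skmNrip1-/-, and Esrra is above 90% of the receptors in all 5.

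To place each gene among the others, the 3 genes with the nearest pattern were taken from 11430 tested genes, by Euclidean distance over the 5 libraries in log2(FPKM + 0.1) centred on each gene. Nearest to Ppargc1b were Acot11 (distance 0.0467), an acyl-CoA thioesterase, Tcaim, a mitochondrial protein, and Alas1, the first enzyme of heme synthesis. Alas1 had 106.2, 153.2 and 130 FPKM in WT control and 194.1 and 202.7 FPKM in the libraries labelled skmNrip1-/-. Nearest to Perm1 were Pitpnc1 (distance 0.0447), a phosphatidylinositol transfer protein, Gtf2e1, a subunit of general factor TFIIE, and Mfn1, which fuses mitochondrial outer membranes. For Esrra they were Phyhd1 (distance 0.0195), Zadh2 and Pigw. Since the distance depends on how much a gene varies, these values are not comparable between the 7 genes.

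The remaining neighbours were Cks2, Atp6v0a2 and Abl2 for Ppargc1a, Mettl11b, Ybey and Pigl for Pprc1, and Pm20d2, Enpp2 and Chid1 for Esrrb. Esrrg was nearest to Ide, Ubap2l and Kbtbd7. None of the 21 neighbours was called (adjusted p from 0.234 to 0.997 from limma), beside 0.453% of all genes tested. They were picked for patterns close to those of genes that were not called, so this count adds no result. Within the family, the closest pair by distance was Ppargc1b and Perm1 (0.210), then Perm1 and Esrrg (0.284) and Ppargc1a and Esrrg (0.339). This order depends on the measure. By Pearson correlation over the 5 libraries, Ppargc1b and Perm1 (r = 0.961) were followed by Esrrb and Esrrg (r = 0.956), and Ppargc1a and Esrrg had r = 0.833.

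The target genes of the circuit were described with a list of 28 genes of mitochondrial metabolism, fatty acid oxidation and oxidative muscle known as ERR or PGC-1 targets, all of which were tested. Of these, 3 were called higher (0.37% of all genes were) and none lower. An unadjusted limma p of 0.05 or less was found for 16, all higher, and for 6.57% of all genes in that direction, and 27 had both skmNrip1-/- values above the WT control range, beside 15.8% of all genes. The median log2 fold change was 0.43, beside a median of -0.00 for all genes. After rescaling to TPM the median was 0.13, which is 0.42 higher than the all-gene median there, and 8 of 28 remained above every WT control library (2.8% of all genes). On the nuclear scale the median was 0.51 and 26 remained (18.9% of all genes). The list was written with earlier results of these data known, so its counts are a description.

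Fabp3, the fatty acid binding protein of oxidative muscle, had the highest log2 fold change of the list. Its FPKM was 483.2, 532.5 and 461.2 in WT control, and 1890 and 1841 in the libraries labelled skmNrip1-/- (log2 1.92, SE 0.12, adjusted p = 0.00293 from limma). Ldhb, the heart-type subunit of lactate dehydrogenase, rose from 86.2 to 105.7 FPKM in WT control to 214.3 and 184.1 FPKM (log2 1.09, SE 0.13, adjusted p = 0.0376 from limma). Fndc5, the precursor of irisin, rose from 28.8 to 32.8 FPKM to 56.2 and 61.9 FPKM (log2 0.96, SE 0.11, adjusted p = 0.0295 from limma). Each of these 3 changes was larger than the value of any of the 7 regulators. Leaving out either library labelled skmNrip1-/- ended all 3 calls, and leaving out WT control replicate 1 or 3 ended those of Ldhb and Fndc5, with log2 values that stayed between 0.89 and 1.94. Rescaling to TPM also ended the calls of Ldhb (log2 0.79, adjusted p = 0.0557 from limma) and Fndc5 (log2 0.66, adjusted p = 0.0684 from limma), as did eBayes without the trend (adjusted p = 0.0943 and 0.0870 from limma). The lowest value in the list belonged to Slc2a4, the insulin-regulated glucose transporter GLUT4, with 240.3 to 298.7 FPKM in WT control and 279.5 and 245.1 FPKM in the libraries labelled skmNrip1-/- (log2 -0.05, which turned to 0.02 on the nuclear scale), and it was the only target whose groups overlapped.

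Promoter windows of RefSeq were found for 22 of the target genes (33 windows). TNAAGGTCA was in none of them, AAGGTCA in 2 and AGGTCA in 7, which are 6.06% and 21.2% of these windows beside 4.72% and 16.3% of all windows. The letters TGACGTCA were in 5 windows, which belong to 3 genes and are 15.2% of these windows beside 1.79% of all. No test was made of these shares.

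Partner transcription factors are the proteins on which PGC-1 coactivators dock, or factors that act with them on mitochondrial genes. Of 22 tested, none was called higher and 1 lower, beside 0.37% and 0.0823% of all genes. The median log2 fold change was 0.02, which turned to -0.26 on the TPM scale. The gene called lower was Srebf1, the lipogenic factor that PGC-1β coactivates in liver, which fell from 16.3, 10.8 and 15.7 FPKM in WT control to 4.51 and 5.08 FPKM (log2 -1.53, SE 0.19, adjusted p = 0.0394 from limma). Ppargc1b and this partner therefore had opposite signs. The call of Srebf1 was lost when either library labelled skmNrip1-/-, or WT control replicate 1 or 3, was left out (adjusted p from 0.0937 to 0.242 from limma), with log2 values from -1.62 to -1.43. Ppara, the receptor of fatty acid oxidation genes, had the highest log2 value, 0.40, but its FPKM of 2.998, 8.36 and 7.22 in WT control and 7.23 and 7.81 in the libraries labelled skmNrip1-/- overlapped. WT control replicate 1 was again the lowest, and without it the log2 value of Ppara was -0.05. Of the 22 partners, 3 lay above and 5 below every WT control library, beside 15.8% and 14.4% of all genes. Those above were Tfam, Tfb1m and Tfb2m, nuclear-encoded proteins that act in mitochondria. Their log2 values were 0.33, 0.39 and 0.21 as deposited and 0.03, 0.09 and -0.08 on the TPM scale. Those below were Srebf1, Rxra, Rxrg, Thra and Pparg. Apart from Srebf1 none of these was called (adjusted p from 0.276 to 0.743 from limma), and they are named here after their values were seen.

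Upstream regulators of PGC-1α, the kinases, deacetylases, acetyltransferases and CREB factors that control its gene or protein, showed no common direction. Of 26 listed, 25 were tested and Camk4 was below the minimum. None was called, beside 0.453% of all genes in either direction. The median log2 fold change was 0.02, or -0.28 on the TPM scale. The highest was Nampt, which makes the NAD+ precursor used by SIRT1, with 41.5, 52.6 and 42.8 FPKM in WT control and 72.2 and 66.7 FPKM in the libraries labelled skmNrip1-/- (log2 0.61, SE 0.13, adjusted p = 0.168 from limma). Mapk11, a p38 kinase, was lowest at -0.55, with 1.98, 0.869 and 0.968 FPKM against 0.853 and 0.717 FPKM. In this list 5 of 25 genes lay above and 6 below every WT control library, beside 15.8% and 14.4% of all genes.

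Other coactivators of nuclear receptors, 10 genes including the p160 and Mediator proteins, had a median of 0.08 (-0.21 on the TPM scale). None was called, beside 0.453% of all genes in either direction. Their log2 values ran from -0.14 for Prmt1, an arginine methyltransferase, to 0.27 for Med1, the Mediator subunit that contacts receptors. Med1 was at -0.02 on the TPM scale. Corepressors (7 tested of 9 listed, with Prox1 and Nr0b2 below the minimum) had a median of -0.00. Nrip1 itself was the only call among them, and it was lost without WT control replicate 3 or without either library labelled skmNrip1-/- (adjusted p from 0.114 to 0.189 from limma). Esr1, the estrogen receptor α to which the ERRs are related, had 2.49 to 3.85 FPKM in WT control and 3.30 and 3.44 FPKM in the libraries labelled skmNrip1-/-, which overlapped.

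**Figure D5:**
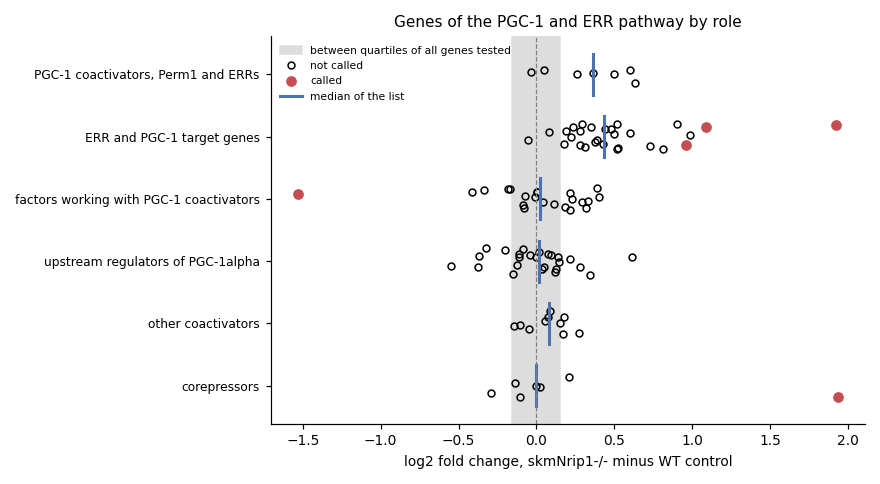
Log2 fold change (horizontal axis) of every tested gene in each role of the pathway, with called genes filled red, the list median as a blue bar, and the range between the quartiles of all 12148 genes as a grey band; vertical scatter within a row has no meaning. Target genes lie to the right with a median of 0.43, the 7 regulators have a median of 0.36, and the other lists have medians between -0.00 and 0.08.

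Other cell types were checked beside these values, because fewer cells of a type and less RNA per cell cannot be told apart in bulk muscle. Slow fiber markers (9 tested) had a median log2 fold change of -0.01 and summed to 138.8, 178.1 and 350.1 FPKM in WT control and 152.1 and 152.0 FPKM in the libraries labelled skmNrip1-/-. Within that list Myl2 was at 3.46 and Myl3 at -1.24, neither called. Fast fiber markers (8 tested) had a median of -0.22, with 3 below and none above every WT control library. Of all genes, 14.4% lay below and 15.8% above. The sum of the fast fiber markers was 79870 and 76610 FPKM against 81890 to 113600 FPKM in WT control. Red blood cell markers summed to 764.2, 660.9 and 511.1 FPKM in WT control and to 995.5 and 827.3 FPKM in the libraries labelled skmNrip1-/-. Of these markers, 4 of 5 lay above every WT control library, beside 15.8% of all genes. Their median log2 fold change was 0.51. This direction is that of Ppargc1b, Perm1, Esrra, Esrrb and the target genes, as is that of the mitochondrial DNA share given above, and their part in those values was not tested.

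Endothelial markers (4 tested) had a median of 0.01 and sums of 57.4 to 71.1 FPKM. Adipocyte markers summed to 1.85 to 3.34 FPKM, with Adipoq at 0.626 to 1.35 FPKM, and the brown adipocyte gene Elovl3 was at 0.0707 to 0.413 FPKM. Macrophage markers summed to 2.35 to 5.54 FPKM, Schwann cell markers to 13.6 to 25.01 FPKM, fibroblast markers to 109.0 to 180.7 FPKM and satellite cell markers to 0.743 to 1.13 FPKM. Of the cardiac markers, Myh6 was at 0.867 to 2.71 FPKM and Tnni3 at 0.0344 to 0.932 FPKM. For all these lists the sums overlapped between the groups, except that satellite cell markers and cardiac markers were lower in both libraries labelled skmNrip1-/-. The listed genes Esr2, Nppa, Myl7 and Ucp1 have no row in the table used here, and no other listed gene was at 0 in any library.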

How the data were processed

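RNA-seq was performed on TA muscle, 3 WT control and 2 skmNrip1-/- libraries. The study's legend gives 3 mice per group. The authors quantified the paired-end reads with Salmon 1.10.2 on the mm10 reference, summarized transcripts to genes with tximport and tested them with DESeq2 1.44.0. They deposited FPKM per gene and library, which were used here as deposited, and log2 fold changes with adjusted p-values, which were not used. How the FPKM were computed is not given in the sources used here. The annotation used here was GENCODE M21, which holds 16996 of the 17015 gene IDs.

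One linear model without covariates was fitted to the 5 libraries on log2(FPKM + 0.1) in limma 3.58.1 (R 4.3.3; lmFit and trended eBayes). The 12148 genes whose mean reached 0.5 FPKM were tested, and p-values were adjusted over them by Benjamini-Hochberg. Genes were called where the adjusted p was 0.05 or lower and the fold 1.2 or larger. The added 0.1 FPKM makes fold changes of low genes too small. Groups follow the sample labels, which do not say more about their independence than that they are separate samples, so p-values measure the spread between these libraries. For 105 to 123 long genes per library with 1 transcript and few fragments, FPKM times length was compared with whole steps of 1 fragment. The step and an offset of the length (310 to 330 bases) were fitted to these same genes. After this fit, 99.0% to 100.0% were whole within 0.1 fragment, which is therefore no independent check. If all fragments came from the longest transcript, the 7 genes had 224 to 21065 fragments per library. The model was tested on simulated data. Other tools were Python 3.11.15, pandas 2.3.3, numpy 2.4.6, scipy 1.17.1 and matplotlib 3.10.9.

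The genes, lists and tests were chosen with earlier results of these data known. Named genes are the 7 members, Nrip1, the called, highest and lowest genes of each list, the 3 nearest genes of each member (no predicted genes) and the markers. A gene that meets this rule is not reported here. Each choice was varied in turn. The pseudocount was set to 1 or 0.01, the minimum to none or 1 FPKM, and the scale to TPM or median of ratios. The median of ratios left the log2 values of the 7 genes nearly unchanged. The variance model was run untrended or robust, the replicate number entered as a block, and each library was left out. For calls, the fold threshold was dropped or the adjusted p lowered to 0.01. Rescaling to the sum of nuclear genes was chosen after seeing the data.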

Additional observations from a re-analysis of the deposited data

How the results depend on the processing

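With 3 against 2 libraries, small differences could not be resolved, and none of the 7 genes was called under any alternative. Ppargc1b, Perm1, Esrra and Esrrb kept their sign throughout. Over the alternatives the adjusted p from limma ranged from 0.157 to 0.755 for Ppargc1b, from 0.162 to 0.796 for Esrra, from 0.129 to 0.809 for Perm1, from 0.277 to 0.878 for Esrrb, from 0.342 to 0.961 for Esrrg, from 0.415 to 0.998 for Ppargc1a and from 0.356 to 0.991 for Pprc1.

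The signs of Ppargc1a, Pprc1, Esrrg and, among the named list genes, Med1, Slc2a4 and Ppara turned under some alternatives. Ppargc1a went to 0.039 on the nuclear scale, 0.16 without WT control replicate 2 and 0.01 without skmNrip1-/- replicate 2, and its values with 1 library left out ran from -0.25 to 0.16. Pprc1 went to -0.24 on the TPM scale, -0.014 without WT control replicate 3 and -0.10 without skmNrip1-/- replicate 2 (with 1 library left out, -0.10 to 0.20). Esrrg went to -0.033 on the TPM scale and Med1 to -0.020. Slc2a4 went to 0.021 on the nuclear scale, and with 1 library left out it ran from -0.15 to 0.040. Ppara ran from -0.048, without WT control replicate 1, to 0.68.

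The genes called higher over the whole table (45) were 29 on the TPM scale, 22 without the trend, 14 with the adjusted p lowered to 0.01, and 6 to 55 with 1 library left out. Those called lower (10) were 59, 3, 3 and 3 to 16. On the TPM scale the medians were 0.13 for targets, -0.26 for partner factors, -0.28 for upstream regulators, -0.21 for other coactivators and -0.30 for corepressors, and on the nuclear scale that of other coactivators was 0.15. With 1 library left out, the medians ran from -0.027 to 0.16 for partner factors and from 0.0062 to 0.13 for other coactivators. Called targets (3) were 1 on the TPM scale and 1 without the trend, and 0 to 4 with 1 library left out. The single called partner factor was lost (0) with no minimum and without the trend, and the single called corepressor, Nrip1, was lost (0) without the trend. With 1 library left out, either was 0 or 1. Genes above every WT control library on the TPM scale were 1 of the 7 regulators and 8 of the targets. The causes of these shifts were not tested.

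The groups share replicate numbers 1 and 2, but same-numbered libraries come from different mice, and the labels do not say that the numbers pair them. Deviations of same-numbered libraries from their group means had r = 0.065 and 0.095 over 12148 genes. The deviations of the 2 libraries labelled skmNrip1-/- mirror each other by construction, so these values cannot show whether the samples are paired. With the replicate block, 18 genes were called higher and 4 lower, 1 target was called, no partner factor or corepressor was (0 and 0), and Pprc1 was at -0.014. In this fit WT control replicate 3 has no partner and does not bear on the difference.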
